A study of Mus musculus with 10 samples.

Results

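The genes described here are 10 genes of the heat shock system, out of 25078 genes listed in the count table of sorted mouse bone marrow LSK cells. They were chosen by name: the inducible HSP70 genes Hspa1a and Hspa1b, the constitutive HSP70 gene Hspa8, the J-domain co-chaperone gene Dnajb1, the HSP110 gene Hsph1, the HSP90 gene Hsp90aa1, the small heat shock protein gene Hspb1, the mitochondrial chaperonin genes Hspd1 and Hspe1, and Hsf1, which encodes the transcription factor of the heat shock response. All 10 had at least 1 count and entered the test, as did 18747 genes in all.

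Heat shock chaperones bind unfolded proteins and help them to fold or to be degraded. When unfolded proteins accumulate, HSF1 is released from chaperones, forms trimers and binds heat shock elements, inverted repeats of the letters GAA, in front of chaperone genes. Within the HSP70 family Hspa8 is expressed in nearly all cells, whereas Hspa1a and Hspa1b have no introns and are switched on quickly by heat, cell handling and other stress. LSK cells (lineage marker negative, Sca-1 positive, Kit positive) hold the blood stem cells and multipotent progenitors.

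The 10 libraries came from 10 mice, 5 CM and 5 CM/miR-126Δ/Δ, at a preleukemic time 6 weeks after poly(I:C). CM mice carried a knock-in allele of the inv(16) leukemia fusion Cbfb-MYH11 (Cbfb 56M/+) together with Mx1-Cre. The CM/miR-126Δ/Δ group had these alleles plus loxP sites around both copies of miR-126. Both genotypes therefore expressed the fusion and Cre and both received poly(I:C), which was given to females and males 6 to 8 weeks old on a C57BL/6 background. Mx1-Cre is switched on by interferon and is not limited to LSK cells, so that other cells of the marrow recombine too, and the comparison holds no mouse without the fusion. The comparison addresses how loss of miR-126 changes the expression programme of preleukemic cells.

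Total counts ranged from 23649233 to 33202086 in CM mice and from 24141663 to 26615091 in CM/miR-126Δ/Δ mice. The deleted gene, Mir126a, was counted 4, 5, 0, 2 and 3 times in the CM libraries and never in those of the deleted genotype, so that CM mouse 3 could not be told from the deleted mice at this depth. All 12 LSK markers were detected at a level of at least 1 RPKM, and their summed level was 3587 to 4190 CPM in CM mice and 3492 to 4199 CPM in CM/miR-126Δ/Δ mice. Of these markers 3 of 12 had an unadjusted edgeR p under 0.05 (6.61% of all genes did), all higher in CM/miR-126Δ/Δ mice, Hlf by 0.31, Mecom by 0.24 and Meis1 by 0.19 on the log2 scale (edgeR adjusted p = 0.661, 0.748 and 0.746), and their part in the chaperone values was not tested. The summed level of 8 mature granulocyte and macrophage markers was 79.7 to 254 CPM in CM mice and 72.7 to 428 CPM in CM/miR-126Δ/Δ mice, and that of 8 erythroid markers was 12.7 to 122 and 31.4 to 91.1 CPM. The median log2 fold change was 0.78 over the 8 granulocyte and macrophage markers and 0.02 over the 5 erythroid markers tested, with 2 lower in each list. An unadjusted edgeR p under 0.05 was found for 1 of these 8 (12.5%), which was lower, and for none of these 5. The part of these markers in the chaperone values was not tested. Ribosomal Rn45s took 14.8% to 18.5% of counts in CM mice and 16.6% to 22.6% in CM/miR-126Δ/Δ mice. In such sorted bulk samples, fewer cells of a type and less RNA per cell cannot be told apart.

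The promoters of several of these genes are shown first, because most hold a match to the heat shock element and because they show which genes share sequence. RefSeq (GRCm38.p6, the mm10 build of the files) gave a window from 250 bases before to 50 bases after the start site for 7 of the 10 genes, and none for Hsp90aa1, Hspa8 and Hsf1. The 2-unit heat shock element was searched as GAANNTTC and TTCNNGAA, each of which reads the same on both strands and is shown in capitals. Overlapping matches were counted separately. Hspa1a (chr17:34972107-34972406, minus strand) and Hspa1b (chr17:34959189-34959488, minus strand) are shown because they could hardly be told apart, with 4 differing bases in 300.
Hspa1a: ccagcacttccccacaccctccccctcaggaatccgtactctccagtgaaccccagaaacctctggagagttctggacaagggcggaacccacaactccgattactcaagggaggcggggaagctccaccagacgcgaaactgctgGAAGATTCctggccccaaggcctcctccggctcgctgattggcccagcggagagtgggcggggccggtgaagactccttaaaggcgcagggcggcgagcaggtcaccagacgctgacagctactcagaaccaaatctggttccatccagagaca
Hspa1b: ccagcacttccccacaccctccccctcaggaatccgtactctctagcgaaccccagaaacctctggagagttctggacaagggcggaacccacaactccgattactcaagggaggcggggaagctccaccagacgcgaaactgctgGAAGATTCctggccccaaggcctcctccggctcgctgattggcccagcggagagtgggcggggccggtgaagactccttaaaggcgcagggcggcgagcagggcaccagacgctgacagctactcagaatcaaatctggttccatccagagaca

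Each of these 2 windows held 1 element, which began 104 bases before the start site. Hspd1 and Hspe1, which lie head to head on chromosome 1, share a stretch of 285 bases between their windows. The window of Hspe1 (chr1:55087898-55088197, plus strand) is shown because that stretch lies in a window of both genes. Its run of capitals is 3 overlapping elements that begin 89, 84 and 79 bases before the start site. The same run is read in the other direction in front of the inner of 2 Hspd1 start sites, in the window chr1:55087883-55088182. There it begins 144, 139 and 134 bases before the start site. Hsph1 (chr5:149636287-149636586, minus strand) is shown as the other window with 3 elements, 1 in front of its start site and 2 behind it.
Hspe1: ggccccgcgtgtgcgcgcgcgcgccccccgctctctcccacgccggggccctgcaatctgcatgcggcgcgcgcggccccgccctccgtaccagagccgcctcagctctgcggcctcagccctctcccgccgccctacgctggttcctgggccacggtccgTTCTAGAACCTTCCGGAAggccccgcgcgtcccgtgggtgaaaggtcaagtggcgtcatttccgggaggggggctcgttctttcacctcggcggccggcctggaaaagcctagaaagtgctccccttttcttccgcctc
Hsph1: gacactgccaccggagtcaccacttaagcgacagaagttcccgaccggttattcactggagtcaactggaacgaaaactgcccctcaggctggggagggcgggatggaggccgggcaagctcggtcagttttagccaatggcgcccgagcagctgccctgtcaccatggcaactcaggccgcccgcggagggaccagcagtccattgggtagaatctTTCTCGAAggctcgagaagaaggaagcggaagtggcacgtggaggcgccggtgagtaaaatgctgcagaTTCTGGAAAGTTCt

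The window of Dnajb1 (chr8:83607925-83608224, plus strand) is shown because it held no such element, and neither did the second Dnajb1 window.
Dnajb1: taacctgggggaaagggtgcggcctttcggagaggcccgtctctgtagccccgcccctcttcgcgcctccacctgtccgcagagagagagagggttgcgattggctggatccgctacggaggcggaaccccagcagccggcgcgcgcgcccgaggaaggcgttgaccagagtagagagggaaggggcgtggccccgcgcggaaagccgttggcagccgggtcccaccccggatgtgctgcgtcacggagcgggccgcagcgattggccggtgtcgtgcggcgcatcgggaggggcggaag

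In all, 6 of the 7 genes with a window held the 2-unit element, all but Dnajb1, against 16.97% of 27025 genes with a window in the table. Hspb1 held 2. The other window of Hspd1, chr1:55088194-55088493, held none. It belongs to the start site at the outer end of the counted gene (55088243), and the run of elements lies behind that start. Hspd1 is thus counted here through its inner start site only. The 3-unit form, in which 3 alternating units follow each other, was in the windows of 3 of the 7 genes, Hspd1, Hspe1 and Hsph1, against 0.662% of all genes. Hspd1 and Hspe1 share this stretch and are not independent of each other. Neither are Hspa1a and Hspa1b, whose windows differ in 4 of 300 bases and held no 3-unit form. A match is a description of the letters and not a measured binding site.

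Per length, the genes formed an order that was nearly the same in every mouse. The mean level over the 10 mice was 131 RPKM for Hspa8, 58.5 for Hsp90aa1, 35.8 for Dnajb1, 34.8 for Hspd1, 27.0 for Hspe1, 15.9 for Hsf1 and 14.2 for Hsph1. Hspa1b at 1.03 RPKM and Hspa1a at 0.961 RPKM lay far below, and Hspb1 had 0.0279 RPKM. Hspa8 was above Hsp90aa1, and Hsp90aa1 above Dnajb1, in 10 of 10 mice. Neighbours that did not keep their order were Dnajb1 and Hspd1, with Dnajb1 higher in 6 of 10 mice, and Hspa1b and Hspa1a, with Hspa1b higher in 6 of 10 mice. Hspd1 exceeded Hspe1 in 9 of 10 mice, and Hsf1 exceeded Hsph1 in 8 of 10.

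**Figure D1:**
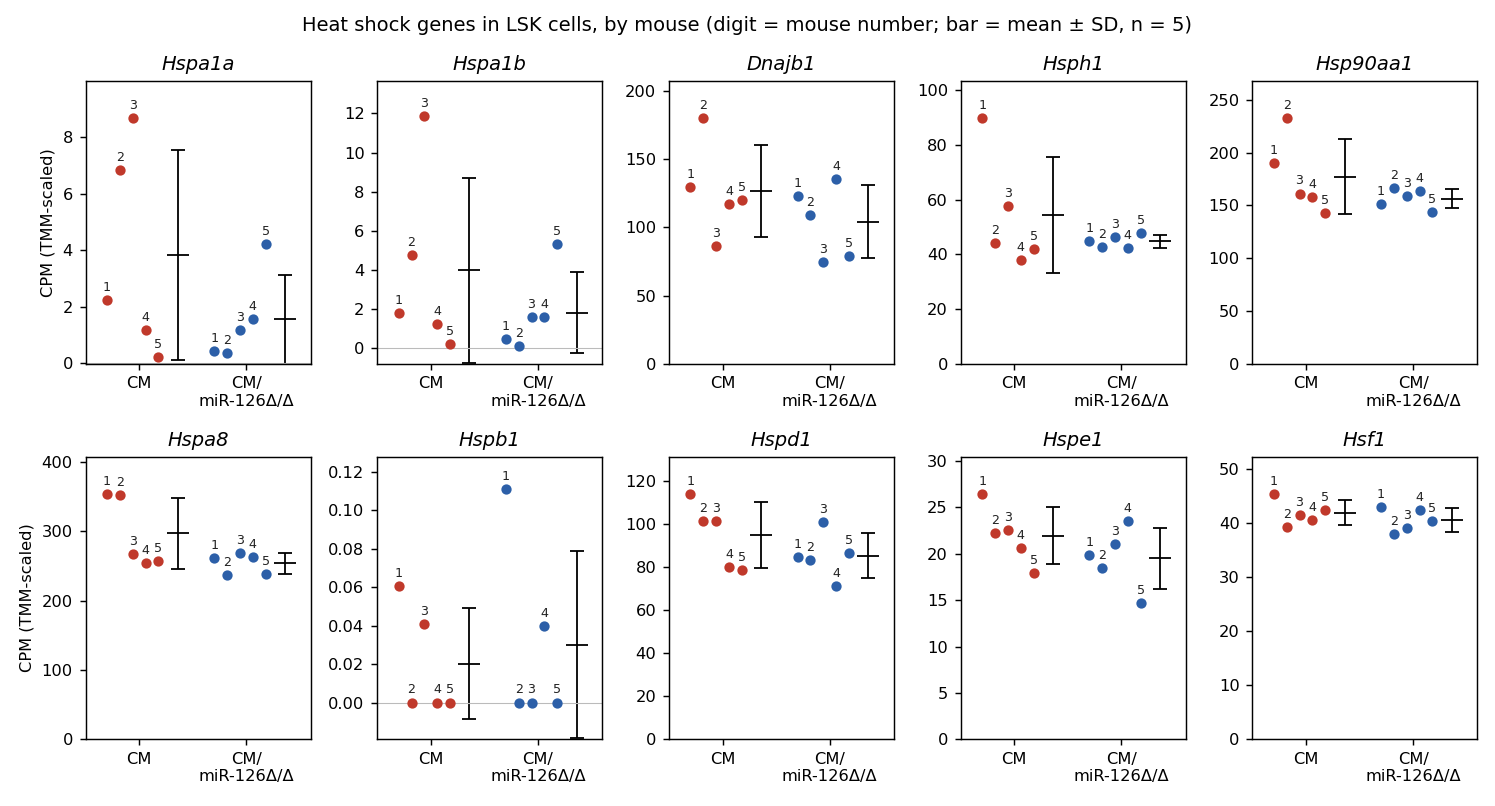
Level of each of the 10 heat shock genes in LSK cells of each mouse, 5 per genotype, in CPM (counts relative to the TMM-scaled library total) on a linear axis. Points are mice, with the mouse number above each, and the bars give the mean and SD. The genotypes overlap in every panel, and Hspa1a and Hspa1b range from near 0 to 8.68 and 11.9 CPM within CM mice.

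None of the 10 genes met the cutoffs of the study (1.5-fold or more, with a p no higher than 0.01 and at least 1 RPKM on average in 1 genotype), against 0.288% of all genes tested. By the edgeR quasi-likelihood test, 1 of the 10, Hspa8, had an unadjusted p under 0.05, against 6.61% of all genes (3.32% of all genes were under 0.05 and lower in CM/miR-126Δ/Δ mice), and DESeq2 also gave 1. No gene of the 10 had groups that did not overlap, against 1.10% of all genes. The mean was lower in CM/miR-126Δ/Δ mice for 9 of the 10, all but Hspb1, against 52.6% of all genes tested. Hspb1 had 0 to 3 counts per mouse, which give no direction. The median log2 fold change over the 10 genes was -0.20 against -0.01 over all genes tested. At 1 RPKM or more in 1 genotype, 9 of 9 were lower, against 57.5% of all such genes, with medians of -0.23 and -0.02. The 10 genes were measured in the same mice and do not count as independent. The edgeR adjusted p over all genes was 0.748 for Hspa8 and at least 0.765 for the other 9. A p above the threshold does not show that the genotypes have equal levels.

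**Figure D2:**
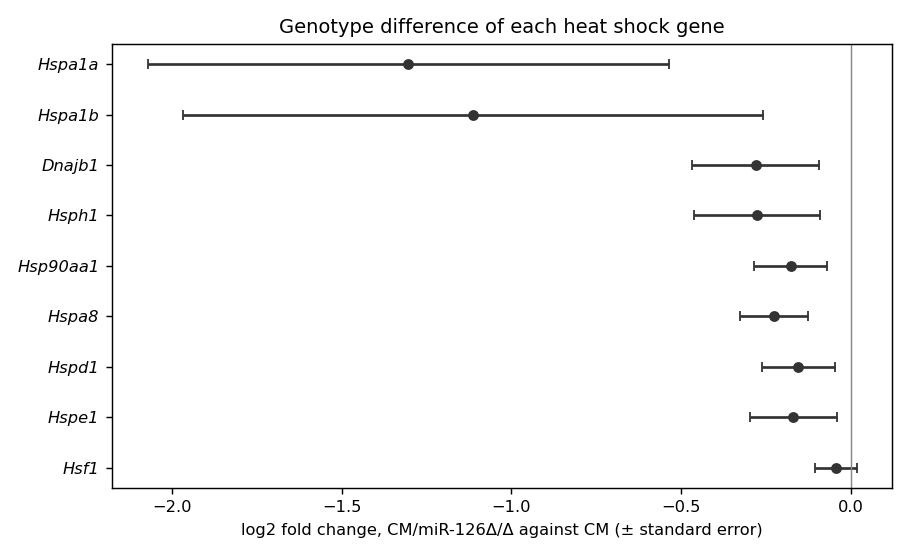
Log2 fold change of each heat shock gene in CM/miR-126Δ/Δ against CM mice (x axis), with the standard error of the edgeR quasi-likelihood fit with 5 mice per genotype. All 9 genes shown lie below 0, from -1.30 for Hspa1a to -0.05 for Hsf1, and Hspb1 is left out because no mouse had more than 3 counts.

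Hspa1a and Hspa1b, the stress-inducible HSP70 genes, differed more between mice than between genotypes. Hspa1a (chr17:34969359-34972156) had 2.24, 6.84, 8.68, 1.18 and 0.231 CPM in CM mice 1 to 5 and 0.445, 0.363, 1.18, 1.54 and 4.20 CPM in CM/miR-126Δ/Δ mice 1 to 5. Its highest and lowest values were both in CM mice, 37.5-fold apart, at 212 and 7 counts. Hspa1b (chr17:34956429-34959238) had 1.79, 4.79, 11.9, 1.24 and 0.231 CPM in CM mice and 0.482, 0.121, 1.61, 1.62 and 5.31 CPM in CM/miR-126Δ/Δ mice. The same 3 mice, CM mice 2 and 3 and CM/miR-126Δ/Δ mouse 5, had the highest values of both genes. The log2 fold change was -1.30 ± 0.767 (SE) for Hspa1a (edgeR p = 0.111, exact permutation p = 0.381) and -1.11 ± 0.853 for Hspa1b (edgeR p = 0.213, exact permutation p = 0.444).

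Single mice set the size of these differences. Without CM/miR-126Δ/Δ mouse 5, the log2 fold change was -2.11 for Hspa1a and -2.05 for Hspa1b, and without CM mouse 5 that of Hspa1a was -1.60, each with an unadjusted edgeR p under 0.05. Without CM mouse 3, it was -0.75 for Hspa1a and -0.13 for Hspa1b. In every case the edgeR adjusted p was at least 0.762 for both genes when these mice were left out.

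The counts of these 2 genes are not independent of each other. Of all 51-base windows of the Hspa1a transcript, as long as a read, 59.2% also occur in Hspa1b, and 60.9% of those of Hspa1b occur in Hspa1a, so that the division of reads between them is uncertain. Their log2 CPM correlated across the 10 mice with r = 0.967 (permutation p = 7.0e-05, adjusted over 36 pairs 0.00252) and rho = 0.964 (permutation p = 5.0e-05, adjusted 0.00180), and r was 0.957 without the 2 mice farthest from the median. Added together they had 4.03, 11.6, 20.5, 2.42 and 0.462 CPM in CM mice and 0.927, 0.484, 2.79, 3.17 and 9.51 CPM in CM/miR-126Δ/Δ mice. The sum was 7.82 ± 8.28 CPM in CM mice and 3.38 ± 3.62 CPM in CM/miR-126Δ/Δ mice (SD, n = 5 each), a difference of -0.97 on the log2 scale (exact permutation p = 0.421). The highest sum was 44.5-fold above the lowest, at 502 and 14 counts.

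Dnajb1 encodes an HSP40 protein that brings substrates to HSP70 and starts its ATPase. It had 129, 180, 86.4, 117 and 120 CPM in CM mice and 123, 109, 74.4, 136 and 78.7 CPM in CM/miR-126Δ/Δ mice. CM mouse 2 was highest and CM/miR-126Δ/Δ mice 3 and 5 were lowest, followed by CM mouse 3. On the log2 scale the fold change was -0.28 ± 0.186 (SE; edgeR p = 0.153, exact permutation p = 0.254). It was -0.38 without CM mouse 3, with an unadjusted edgeR p under 0.05, and moved towards 0 without CM mouse 2 (-0.12) or CM/miR-126Δ/Δ mouse 3 (-0.18).

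Hsph1, the HSP110 nucleotide exchange factor of HSP70, was set apart by 1 mouse. It had 89.9, 44.3, 57.5, 37.8 and 41.9 CPM in CM mice and 45.0, 42.8, 46.2, 42.3 and 47.8 CPM in CM/miR-126Δ/Δ mice. CM mouse 1 was above the others, and all CM/miR-126Δ/Δ mice lay within the range of the CM mice. The log2 fold change of -0.28 ± 0.185 (SE; edgeR p = 0.155, exact permutation p = 0.484) became -0.0050 without CM mouse 1.

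Hspa8, which folds and moves proteins in unstressed cells, and Hsp90aa1, the stress-responsive cytosolic HSP90, were highest in CM mice 1 and 2. Hspa8 had 354, 352, 268, 254 and 257 CPM in CM mice and 262, 237, 268, 263 and 239 CPM in CM/miR-126Δ/Δ mice. Its log2 fold change was -0.23 ± 0.101 (SE; edgeR p = 0.0411, adjusted 0.748, exact permutation p = 0.143). The unadjusted edgeR p of Hspa8 was above 0.05 without CM mouse 1 (0.159, at a log2 fold change of -0.14), without CM mouse 2 (0.124) and without CM/miR-126Δ/Δ mice 1, 2, 4 or 5 (0.0610, 0.0898, 0.0552 and 0.0845). The small nucleolar RNA Snord14c lies inside Hspa8 on the same strand and had 61 to 210 counts.

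Hsp90aa1 had 190, 233, 161, 158 and 143 CPM in CM mice and 151, 166, 159, 163 and 143 CPM in CM/miR-126Δ/Δ mice. Its log2 fold change of -0.18 ± 0.109 (SE; edgeR p = 0.122, exact permutation p = 0.310) was -0.06 without CM mouse 2, and -0.23 without CM mouse 5, where the unadjusted edgeR p was under 0.05. The SD between mice was 51.5 CPM in CM against 14.9 CPM in CM/miR-126Δ/Δ mice for Hspa8, 35.6 against 9.26 CPM for Hsp90aa1 and 21.2 against 2.34 CPM for Hsph1. This difference in spread was not tested. Across the 10 mice Hsp90aa1 and Hspa8 correlated with r = 0.851 (permutation p = 0.00844, adjusted over 36 pairs 0.101) and rho = 0.539 (permutation p = 0.114, adjusted 0.379), and r was 0.168 without the 2 mice farthest from the median. With each gene centred within genotype, r was 0.824 (permutation p = 0.00182, adjusted 0.0328) and rho 0.818 (permutation p = 0.00604, adjusted 0.109), and r was 0.736 without 2 mice. Among the CM mice alone r was 0.896 and among the CM/miR-126Δ/Δ mice 0.168, as values over 5 mice each.

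Hspd1 and Hspe1 encode the chaperonin HSP60 and its lid HSP10 in mitochondria. Hspd1 had 114, 101, 101, 79.9 and 78.4 CPM in CM mice and 84.7, 83.3, 101, 71.3 and 86.3 CPM in CM/miR-126Δ/Δ mice. Hspe1 had 26.5, 22.2, 22.6, 20.7 and 17.96 CPM in CM mice and 19.9, 18.4, 21.0, 23.6 and 14.7 CPM in CM/miR-126Δ/Δ mice. CM mouse 1 was highest for both. In the edgeR fit the log2 fold change was -0.16 ± 0.108 (SE) for Hspd1 and -0.17 ± 0.128 for Hspe1 (edgeR p = 0.171 and 0.203, exact permutation p = 0.286 for each), and without CM mouse 1 these were -0.07 and -0.08. Hspd1 was also at -0.08 without CM/miR-126Δ/Δ mouse 4, and Hspe1 at -0.08 without mouse 5.

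Although they share the promoter region shown above, the 2 chaperonin genes did not track each other closely, with r = 0.430 across the 10 mice, 0.921 among CM mice and -0.272 among CM/miR-126Δ/Δ mice (values only, 5 mice each). Per length, Hspd1 was 0.899-fold to 1.74-fold the level of Hspe1. Their exons overlap by 96 bases on opposite strands, and the strand setting of the counting was not stated, so reads from that stretch cannot be assigned. Hsph1 and Hspd1 were the pair with the next highest r across the 10 mice, 0.754 (permutation p = 0.00288, adjusted 0.0518), with rho = 0.818 (permutation p = 0.00574, adjusted 0.0874), and r was 0.523 without 2 mice.

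Hsf1 (chr15:76477362-76501155) was the least variable of the 10 genes. It had 45.5, 39.3, 41.5, 40.7 and 42.5 CPM in CM mice and 43.02, 38.0, 39.1, 42.4 and 40.5 CPM in CM/miR-126Δ/Δ mice, with a highest value 1.20-fold above the lowest. Its log2 fold change was -0.05 ± 0.0625 (SE; edgeR p = 0.478, exact permutation p = 0.373), and -0.0022 without CM mouse 1. HSF1 is regulated largely at the protein level, and its activity was not measured here. Hspb1, which encodes HSP27, had 2, 0, 1, 0 and 0 counts in CM mice and 3, 0, 0, 1 and 0 counts in CM/miR-126Δ/Δ mice. This is at or under the floor of 3 counts (0.0908 to 0.131 CPM) in every mouse. Its fitted fold change enters the counts and the median over the 10 genes but is no measure of a change.

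The spread between mice of a genotype ordered the genes from HSF1 itself to the inducible HSP70s. It is given as the biological coefficient of variation, the relative SD between mice beyond counting error that edgeR estimates for each gene. It was 0.837 for Hspa1a and 0.944 for Hspa1b, with 32 and 21 of 11682 genes of at least 1 RPKM above them. Among genes at a similar level, within 0.5 in log2 CPM, the median was 0.226 around Hspa1a and 0.221 around Hspa1b. Dnajb1 at 0.214 and Hsph1 at 0.213 stood at percentiles 98.4 and 98.1 of genes at their level. Hsp90aa1 at 0.130, Hspd1 at 0.128 and Hspa8 at 0.121 stood at percentiles 93.1, 93.3 and 90.1, Hspe1 at 0.157 at percentile 84.7, and Hsf1 at 0.0831 at percentile 15.02. These ranks describe these 10 mice and carry no test.

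**Figure D3:**
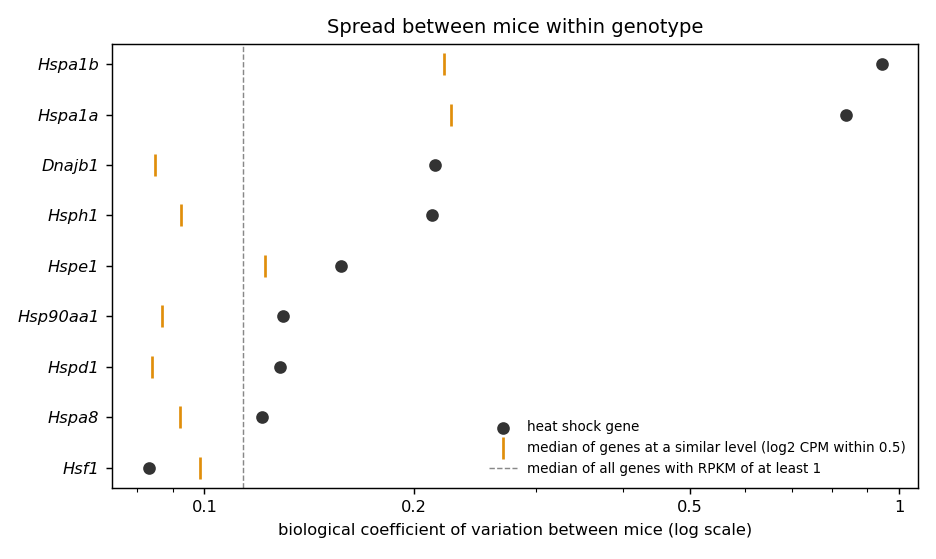
Biological coefficient of variation between mice of a genotype (x axis, log scale) for 9 heat shock genes (dots), with the median of genes at a similar level (orange ticks) and the median of 11682 genes of at least 1 RPKM (dashed line, 0.114). Hspa1a and Hspa1b lie far to the right of genes at their level, and only Hsf1 lies to the left.

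The values of Dnajb1 followed those of a list of 22 immediate early genes, the genes such as Fos, Jun and Egr1 that are transcribed within minutes of a stimulus, including that of tissue handling. The mean log2 CPM of the list was 6.10, 7.23, 4.84, 6.12 and 6.38 in CM mice and 5.99, 5.89, 3.45, 6.40 and 3.75 in CM/miR-126Δ/Δ mice. Fos alone ranged from 17.1 CPM in CM/miR-126Δ/Δ mouse 3 to 1220 CPM in CM mouse 2. Across the 10 mice, Dnajb1 correlated with the list mean with r = 0.958 (permutation p = 2.0e-05, adjusted over 40 relations 8.0e-04) and rho = 0.903 (permutation p = 7.9e-04, adjusted 0.0316). It was 0.959 without the 2 mice farthest from the median, 0.964 among the 5 CM and 0.985 among the 5 CM/miR-126Δ/Δ mice.

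Part of that range lay between mice that stood apart. Among the 7 mice with a list mean above 5, r was 0.932 (permutation p = 0.0125) and rho was 0.714 (permutation p = 0.0870), and among 6 of them without CM mouse 2, r was 0.617 (permutation p = 0.197). Thus r stayed high without the 3 mice with the lowest list means. The list means of the last 6 mice ran only from 5.89 to 6.40, so r over them cannot show what the relation rested on. With the genes taken one by one, r of Dnajb1 was 0.780 to 0.977 (median 0.932), and all 22 relations had an adjusted permutation p under 0.05 over the 22. These 22 genes make up the list mean and were measured in the same mice, so their relations are not independent of each other or of that with the mean. The other stress-inducible genes had no such relation, with r = -0.18 for Hspa1a, -0.31 for Hspa1b and -0.10 for Hsph1. None of the other 39 relations, of the 10 genes with the total count, the share of Rn45s, the RNA concentration or the list mean, had an adjusted permutation p under 0.05. Dnajb1 and Hspa1a correlated with r = -0.04.

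**Figure D4:**
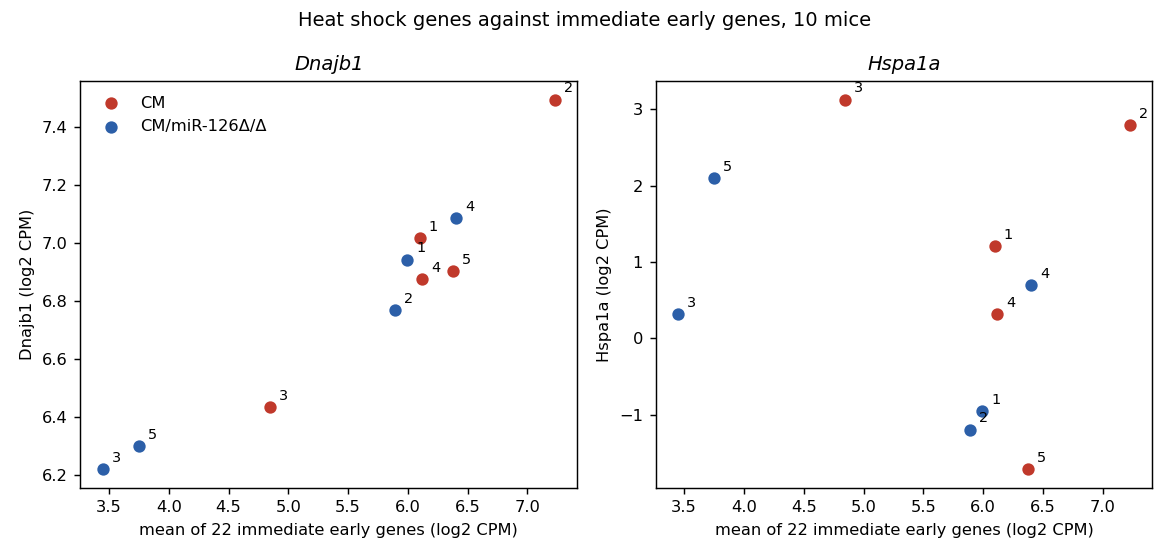
Dnajb1 (left) and Hspa1a (right), in log2 CPM on the y axes, against the mean log2 CPM of 22 immediate early genes on the x axes, in 5 CM (red) and 5 CM/miR-126Δ/Δ mice (blue), with mouse numbers. Dnajb1 rises along the axis over both genotypes (r = 0.958). Hspa1a does not (r = -0.18), and it is highest at CM mice 3 and 2, at list means of 4.84 and 7.23.

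The mean levels of the immediate early genes were also lower in CM/miR-126Δ/Δ mice, mostly without passing the test, and their part in the Dnajb1 values was not tested. All 22 of 22 had a log2 fold change below 0 (52.6% of all genes did, and 57.5% of those of at least 1 RPKM, as all 22 are), with a median of -0.74. Without CM mouse 2 these were 18, and without CM/miR-126Δ/Δ mouse 3 they were 21. An edgeR p under 0.05 was found for 3 of the 22 (13.6%, against 6.61% of all genes). They were Klf4 at -1.16, Klf6 at -0.74 and Ier5 at -0.49, none with an adjusted p under 0.69. The count under 0.05 was 1 without CM mouse 2, 9 without CM mouse 3, 1 without CM/miR-126Δ/Δ mouse 3 or 5, 5 without mouse 1 and 11 without mouse 4, and it was 3 or 2 without the others. DESeq2 gave 1.

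Further chaperone genes were taken from 10 lists written from general knowledge, 132 genes beside the 10, of which 128 were tested. By the edgeR test 16 of the 128 (12.5%, against 6.61% of all genes) had an unadjusted p under 0.05, 14 lower and 2 higher in CM/miR-126Δ/Δ mice. In direction, 103 of 128 were lower (52.6% of all genes were), with a median log2 fold change of -0.08 (-0.01 over all genes). At 1 RPKM or more in 1 genotype, 95 of 114 were lower, against 57.5% of all such genes, with medians of -0.08 and -0.02. Leaving out CM mouse 1 or 4 or CM/miR-126Δ/Δ mouse 1 or 2 brought the 16 to 6, 8, 10 and 8. None had an adjusted p under 0.05 by edgeR. The share was largest among the HSP90 relatives and co-chaperones, of which 8 of 18 were under 0.05, all lower, at a list median of -0.14.

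The 8 were Ppid, Stip1, Tomm34, Stub1, Nudc, Cdc37, Ahsa1 and Fkbp4. Some HSP90 co-chaperones load clients onto HSP90 or set its ATPase rate, and Stub1 marks clients with ubiquitin. Ppid, the cyclophilin 40 gene, had 72.8, 62.7, 54.9, 51.1 and 50.1 CPM in CM mice and 49.4, 46.4, 45.1, 51.3 and 43.1 CPM in the other genotype. This is -0.31 ± 0.0953 (SE) on the log2 scale (edgeR p = 0.00574, adjusted p = 0.661, exact permutation p = 0.0238). Only CM/miR-126Δ/Δ mouse 4 reached into the range of the CM mice. Stip1, which joins HSP70 to HSP90, was at -0.18 (edgeR adjusted p = 0.746, exact permutation p = 0.0238). The count of 8 depended on single mice, being 1 without CM mouse 1, 2 without CM mouse 4, and 3, 2 and 3 without CM/miR-126Δ/Δ mice 1, 2 and 4. It was 8 by DESeq2. The most abundant gene of the list, Hsp90ab1, had a log2 fold change of -0.14 (edgeR adjusted p = 0.765, exact permutation p = 0.0714). Below 0 were 17 of the 18 (52.6% of all genes were, and 57.5% of those of at least 1 RPKM, as all 18 are), or 15 with DESeq2 or RLE scaling.

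Among 36 J-domain proteins, 3 were lower and 1 higher at an edgeR p under 0.05 (11.1%, against 6.61% of all genes). Dnajc7 and Dnajc8 had the smallest p, at a log2 fold change of -0.15 each (edgeR p = 0.00917 and 0.00986, exact permutation p = 0.00794 and 0.0159, edgeR adjusted p = 0.661 and 0.670). Dnajc7, which binds HSP70 and HSP90, had 98.3 to 107 CPM in CM mice and 87.6 to 97.6 CPM in CM/miR-126Δ/Δ mice. Its groups narrowly missed each other, and 1.10% of all genes did not overlap. The others were Dnajb13 at -1.26, near the limit of detection at 0.317 and 0.128 CPM, and Dnajc19, a mitochondrial import protein, at 0.43 (edgeR p = 0.0240, exact permutation p = 0.0317). Without CM mouse 4 the lower genes numbered 1, and without CM/miR-126Δ/Δ mouse 4 the higher genes numbered 3.

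In the cytosolic chaperonin TRiC and its partner prefoldin, 13 of 14 genes were below 0 (52.6% of all genes were, and 57.5% of those of at least 1 RPKM). Of the 14, 1 gene, Cct7 at -0.13, had an edgeR p under 0.05 (0.0494), a share of 7.14% near the 6.61% of all genes. Tcp1 was next at -0.13 (0.0611). Of 20 chaperones of the endoplasmic reticulum 19 were below 0, and Pdia3, a disulfide isomerase, was the 1 gene of them (5.00%) under 0.05, at -0.20 (edgeR p = 0.0207, exact permutation p = 0.0238), followed by Sdf2l1 at -0.25 (0.0592). No gene was under 0.05 by edgeR among 11 HSP70 and HSP110 relatives (smallest p for Hspa9 at -0.11 and Hspa5 at -0.17), 10 nucleotide exchange factors (Hspbp1 at -0.16 and Bag1 at -0.08), 6 small heat shock proteins with a count (Hspb6 at -0.19, and Hspb2 at or under the floor), 6 heat shock factors and regulators (Hsbp1 at -0.08, and Hsf3 at or under the floor) and 15 mitochondrial chaperones and proteases (Clpp at -0.15 and Htra2 at -0.12).

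A last list held 20 genes that HSF1 can induce, but 15 of them are also in the lists above, so it is no separate set. Of the 20, 5 were lower and 1 higher at an edgeR p under 0.05 (30.0%, against 6.61% of all genes), and 18 were below 0 (52.6% of all genes were). At 1 RPKM or more in 1 genotype, 16 of 17 were below 0, against 57.5% of all such genes. Of the 5 lower genes 4, Ppid, Stip1, Ahsa1 and Fkbp4, are among the HSP90 co-chaperones already counted, and 1, Ubb, is new here. The lower genes numbered 2 without CM mouse 1 or 4 or CM/miR-126Δ/Δ mouse 2, and 3 without CM/miR-126Δ/Δ mouse 1 or 4. The polyubiquitin gene Ubb, which supplies ubiquitin under stress, met the cutoffs of the study and fell. It had 148, 181, 131, 194 and 178 CPM in CM mice and 87.1, 86.2, 147, 98.1 and 106 CPM after deletion. The difference was -0.67 ± 0.141 (SE) on the log2 scale (edgeR p = 3.24e-04, edgeR adjusted p = 0.320, DESeq2 adjusted p = 0.00509, exact permutation p = 0.0159). CM/miR-126Δ/Δ mouse 3 lay among the CM mice, and without it the log2 fold change was -0.82 (edgeR adjusted p = 0.00937). Ubb met the cutoffs without any 1 of the 10 mice.

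Serpinh1, the collagen chaperone HSP47, went the other way. It had 0.757, 0.826, 0.573, 0.806 and 0.627 CPM in CM mice and 2.04, 1.21, 2.00, 1.39 and 1.48 CPM in CM/miR-126Δ/Δ mice, and the genotypes did not overlap (1.10% of all genes did not). It was higher by 1.17 ± 0.237 (SE) on the log2 scale (edgeR p = 2.19e-04, edgeR adjusted p = 0.259, DESeq2 adjusted p = 0.0114, exact permutation p = 0.00794, the smallest possible), and it stayed at 1.08 to 1.26 without any 1 of the mice. Its 14 to 55 counts left it under 1 RPKM, and it was not called by the cutoffs of the study.

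**Figure D5:**
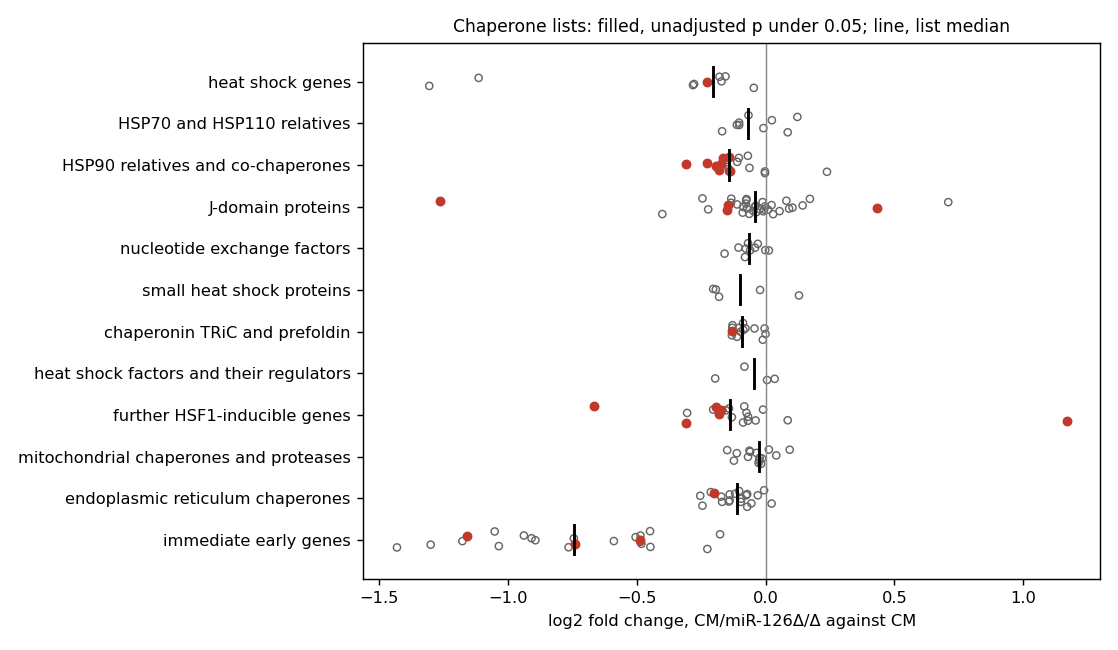
Log2 fold change in CM/miR-126Δ/Δ against CM mice (x axis) of the genes in 12 lists (rows), for genes of at least 0.1 RPKM. Each circle is a gene, filled circles have an unadjusted edgeR p under 0.05, and black lines give the median over all genes tested in each list. The HSP90 row holds 8 filled circles, all below 0, Ubb (-0.67) and Serpinh1 (1.17) are the outer filled circles of the row of HSF1-inducible genes, and all 22 immediate early genes lie below 0.

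Levels across the mice, centred within genotype, were also compared with the mean of Hspa1a, Hspa1b, Dnajb1 and Hsph1. The search covered 11673 genes of at least 1 RPKM and left out the 10 heat shock genes, so it could not return them. The genes most like the mean were in none of the chaperone lists. They were Slc25a26 (r = 0.937), Crebzf (0.903), Ccne1 (0.899), Zmym1 (0.892), Srek1 (0.889), Rsrp1 (0.888), Pcgf3 (0.875), Mecr (0.874), Mir7050 (0.874) and Cul4a (0.866), over 10 mice and with no test. The mean is dominated by Hspa1a and Hspa1b, which vary most. In CM mice Slc25a26 ranged from 7.40 to 9.86 CPM, Rsrp1 from 132 to 276 CPM and Mir7050, near the floor, from 0 to 0.491 CPM.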

How the data were processed

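LSK cells were sorted from bone marrow and 1 ribosomal RNA-depleted, stranded library was made per mouse. Per the study's methods, the authors used Trimmomatic 0.38 for adapters, FASTP 0.19.4 for poly(A), Tophat 2.0.8 for alignment (mm10) and HTSeq 0.6.1 for counting over RefSeq models. The deposited values used here are the resulting raw read counts per gene, with a further deposited column of exon length in bases. A second table, called RPKM, was not used because its values are not divided by gene length.

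A gene entered the test if any library had a count for it. The test was edgeR 4.0.16 (TMM factors, legacy quasi-likelihood F-test, two-sided, genotype only, Benjamini-Hochberg over 18747 genes). The study also used the edgeR quasi-likelihood F-test and the same cutoffs, in another version of edgeR, and its gene filter is not given in the sources used here. CPM and RPKM were computed from the counts with TMM-scaled library sizes. Correlations used log2 CPM with a prior count of 2. Exact permutation tests of log2 CPM used all 252 labellings of the 10 mice (smallest p 0.00794, two-sided), and correlations used 100000 permutations. Alternatives were DESeq2 1.42.0, RLE factors, filterByExpr, the edgeR 4 fit, leaving out Rn45s, a replicate block and leaving out each mouse. The fits were tested on simulated data.

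The 10 genes, the lists and the tests were chosen with earlier results of these data known. The text names all 10 genes, Mir126a, in each other chaperone list the genes that meet the cutoffs and the 2 with the smallest p, and the 10 genes most like the mean of Hspa1a, Hspa1b, Dnajb1 and Hsph1. The other genes named, the 36 pairs of the 10 genes, the single immediate early genes and the subsets of mice were chosen after their values were seen. Markers of T and B cells (6.63 to 20.3 CPM in sum over all mice), megakaryocytes (108 to 210.0 CPM) and endothelium (75.4 to 145 CPM) were also checked. No 2 libraries of a genotype agreed within sampling noise (chi-square per gene at least 9.99 over 20 pairs). Floors cover counting error only.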

Additional observations from a re-analysis of the deposited data

Results flagged for a closer look

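Among 18 groups of 5 mice, 9 genes in each genotype, 1 held a mouse that stood apart from the others by Dixon's test. Hspa1b was at 5.31 CPM in CM/miR-126Δ/Δ mouse 5, against 0.121 to 1.62 CPM in the other CM/miR-126Δ/Δ mice, with a gap of 0.711 of the range against a limit of 0.71. Chance gives about 0.9 such mice in 18 groups. The same mouse was the highest of its genotype for Hspa1a, which shares reads with Hspa1b.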

How the results depend on the processing

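None of the 10 genes met the cutoffs of the study under any alternative, and 9 or 10 were lower in CM/miR-126Δ/Δ mice in each (filterByExpr drops Hspb1). The number with an unadjusted p under 0.05 was 1, against 0 with filterByExpr and 0 to 3 when each mouse was left out. The number of further chaperone genes under 0.05 was 16, against 6 to 19 when each mouse was left out. The fitted value of Hspb1, which rests on 0 to 3 counts per mouse and is no measure of a change, ran from -0.74 to 1.44 when each mouse was left out, and it reversed to -0.74 without CM/miR-126Δ/Δ replicate 1. Counting 3-unit elements in place of 2-unit elements gave 3 genes against 6. Over all genes, calls numbered 54, against 33 to 128 when each mouse was left out and 64 with DESeq2, and the number with an adjusted p under 0.05 was 2 by edgeR and 47 by DESeq2. At this depth Hspb1 was not measurable.

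Mice of both genotypes share replicate numbers, but the labels do not say what a number marks. Deviations of same-numbered mice correlated with r = 0.176, 0.164, 0.430, 0.292 and -0.0035, so that not every pair exceeded 0.1, and 5 of 10 mice correlated best with their own number. The mean r was 0.211 for same-numbered mice and -0.0535 for differently numbered mice of the 2 genotypes. With the replicate number as a block, 8.89% of all genes had an unadjusted edgeR p under 0.05 (against 6.61%). Of the 10 genes 2 did, Dnajb1 (edgeR adjusted p = 0.463) and Hspa8 (edgeR adjusted p = 0.487). So did 16 of 22 immediate early genes (against 3) and 5 of 20 chaperones of the endoplasmic reticulum (against 1). Of the 128 further chaperone genes 22 did (17.2%, against 16 or 12.5%). In all, 115 genes met the cutoffs (against 54).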
